A study of Homo sapiens with 12 samples.

Results

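The CD1 genes encode the 5 human lipid-presenting relatives of the MHC class I heavy chain, and they were followed here in 2 T-cell acute lymphoblastic leukaemia (T-ALL) cell lines treated with chidamide. The members were taken as the rows of the deposited FPKM table with the symbols CD1A, CD1B, CD1C, CD1D and CD1E, which gave 5 of 25146 genes. All 5 had a row, and all 5 passed the filter on low values (FPKM of 1 or more in 3 or more of the 12 libraries), as 13840 genes did. FPKM is a count of sequenced fragments scaled by gene length and library size. The 4 groups of 3 libraries were Molt-4 cells with chidamide, Molt-4 cells without it, Jurkat cells with chidamide and Jurkat cells without it. Chidamide (tucidinostat) is a benzamide inhibitor of class I histone deacetylases, given at 2 µM. The protocol states 48 h, whereas the labels of the treated libraries give 48, 49 and 50 h for replicates 1, 2 and 3, so that time and replicate number cannot be told apart. Libraries are marked J or M, which was read as Jurkat or Molt-4, the lines named in the growth protocol. Each is a single established line, so that a difference between Molt-4 and Jurkat is a difference between 2 lines and not between types of T-ALL.

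CD1 proteins pair with beta-2 microglobulin, as MHC class I molecules do, but hold lipids instead of peptides in a deep hydrophobic groove and show them to T cells. CD1A, CD1B and CD1C are presented at the surface to varied T cells and form the first group of the family. CD1D presents glycolipids to invariant natural killer T (NKT) cells and stands by itself as the second group. CD1E remains inside the cell, where its soluble form helps to edit lipids for the other members. In the thymus, CD1 proteins are classical markers of the cortical, double-positive stage and are lost or reduced as thymocytes mature, and T-ALL is commonly staged by CD1A. Outside the thymus, dendritic cells, Langerhans cells and some B cells carry them.

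The 5 genes lie next to each other on chromosome 1, with no other protein-coding gene between them in RefSeq. The sequences before their starts are shown because the 5 genes fell together, as described below. The set of RefSeq (GRCh38.p14) promoter sequences used here held starts for 4 of the 5 members, 6 starts in all, and none for CD1B. Only bases before the gene's RefSeq span and before every GENCODE 29 start are printed, 5′ to 3′ on the plus strand, which left stretches of 3 members. They are chr1:158248086-158248335 for the upstream start of CD1A, chr1:158289673-158289785 for CD1C and chr1:158353644-158353695 for CD1E. The CD1C stretch lies within the RefSeq span of CD1B, which is on the minus strand. Capitals mark matches to any of the motifs named below, on either strand.
CD1A: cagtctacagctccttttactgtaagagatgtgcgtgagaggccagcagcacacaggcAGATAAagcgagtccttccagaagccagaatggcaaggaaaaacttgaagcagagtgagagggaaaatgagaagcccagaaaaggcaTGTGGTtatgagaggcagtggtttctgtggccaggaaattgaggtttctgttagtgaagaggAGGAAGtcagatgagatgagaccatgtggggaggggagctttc
CD1C: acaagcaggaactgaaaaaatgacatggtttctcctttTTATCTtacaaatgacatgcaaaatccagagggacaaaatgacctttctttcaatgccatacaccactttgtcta
CD1E: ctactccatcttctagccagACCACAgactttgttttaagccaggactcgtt
Over the 250 bases before each start, both strands were searched for RUNX (TGTGGT), ETS (AGGAAG), E-box (CAGCTG), TCF/LEF (CTTTGA), SP1 (GGGCGG) and TATA box (TATAAA) letters and for AGATAA, the letters of GATA factors, and no match overlapped another. The upstream CD1A window held a RUNX, an ETS and a GATA match, and the window at the downstream CD1A start held 0. The upstream start lies 5801 bases from the principal GENCODE 29 start of CD1A, and the downstream start lies 287 bases from it. The CD1C window held an ETS, a GATA and an E-box match, of which the GATA match lies in the printed part. The window at the first CD1D start held an ETS match, and that at its downstream start held 2 TCF/LEF matches. The CD1E window held a RUNX match on the minus strand. SP1 and TATA box letters were in none of these 6 windows. Among all 35116 RefSeq starts, windows of the same length held RUNX letters in 11%, ETS in 28.7%, GATA in 9.2%, E-box in 14%, TCF/LEF in 11.2%, SP1 in 42.6% and TATA box in 10.7%. The 6 CD1 windows had between 0 and 8 CpG dinucleotides, against a median of 11 over all starts. A match is only a run of letters, and which start these cells used was not measured.

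Total FPKM lay between 698435 and 869059 per library, and r across genes within a group was 0.989 to 0.995. FPKM holds no read counts, so the depth and the counting error are unknown. Replicate 3 of untreated Jurkat was unlike its group mates, where the log2 ratios to replicates 1 and 2 had SDs of 0.332 and 0.337, against 0.233 to 0.269 in all other pairs of 1 group. Untreated Molt-4 replicate 3 had the highest share of 7SL RNA, 10.1% of total FPKM. The T-cell markers CD3D, CD3E, CD3G, CD247, CD2, CD5, CD7, LCK, ZAP70 and LAT were above a mean FPKM of 1 in all 4 groups. The labels do not state whether replicates were separate cultures, and the p-values cover no more than the spread among these libraries. Each log2 change is taken on log2(FPKM + 1), which understates the change of low genes, and stands with its SE from limma fitted to all 13840 genes. A gene is called where its Benjamini-Hochberg adjusted p was below 0.05. In bulk RNA, fewer cells with a transcript and less of it per cell cannot be told apart.

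In Molt-4, all 5 CD1 genes were lower with chidamide, and CD1B, CD1E and CD1A were left at 8.29%, 11.5% and 10.6% of their mean untreated FPKM. The call was lower for 5 of 5, against 24.6% of all genes tested, and the median log2 change of the 5 was -2.96, against 0.08 over all genes. Under quantile normalization 36.4% of all genes were called lower in Molt-4, and 58.7% of all calls were lower, against 41.0% as deposited.

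CD1B, which samples lipids in late endosomes and lysosomes, had 8.66, 5.63 and 7.47 FPKM in treated Molt-4, against 88.8, 89.7 and 83.9 FPKM in untreated Molt-4. The treated libraries were all far below the untreated ones, and the treated replicate 2 was the lowest. Its log2 change was -3.44 ± 0.14 (adjusted p = 1.33e-09). CD1E, the intracellular lipid-editing member, had 16, 19.2 and 17 FPKM in treated Molt-4, against 143.3, 152.9 and 156.6 FPKM in untreated Molt-4. CD1E remained the highest member in every treated library (log2 change -3.05 ± 0.078, adjusted p = 5.63e-11). CD1A, which recycles through early endosomes and is abundant on Langerhans cells, had 3.96, 4.27 and 4.31 FPKM in treated Molt-4, against 41.1, 39.2 and 37.5 FPKM in untreated Molt-4. The 2 groups of CD1A values were tight and did not overlap (log2 change -2.96 ± 0.083, adjusted p = 8.85e-11).

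CD1C and CD1D had smaller changes in Molt-4, and lower untreated levels than the other members. CD1C, a marker of a dendritic cell subset, had 6.34, 6.29 and 5.6 FPKM in treated Molt-4, against 13.7, 13.5 and 15.5 FPKM in untreated Molt-4. The treated mean was 42.7% of the untreated mean (log2 change -1.10 ± 0.089, adjusted p = 5.59e-07). CD1D, the member that invariant NKT cells recognise, had 3.28, 2.74 and 2.48 FPKM in treated Molt-4, against 6.29, 6.26 and 5.84 FPKM in untreated Molt-4. CD1D was the lowest member in every Molt-4 library, and its treated mean was 46.2% of the untreated mean (log2 change -0.90 ± 0.093, adjusted p = 4.69e-06). Under quantile normalization its log2 change was -1.51. Treated and untreated Molt-4 libraries did not overlap for any of the 5 genes, as for 28.3% of all genes tested in the lower direction.

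In Jurkat, all 5 CD1 genes were lower as well, and CD1C and CD1E fell the furthest. The call was lower for 5 of 5, against 25.4% of all genes tested, and the median log2 change of the 5 was -2.16, against 0.04 over all genes. A lower call in both lines was made for 16.2% of all genes.

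CD1C had 8.96, 7.89 and 9.1 FPKM in treated Jurkat, against 56.6, 51.4 and 60.5 FPKM in untreated Jurkat. Its treated mean was 15.4% of the untreated mean, and the log2 change was -2.57 ± 0.089 (adjusted p = 6.63e-10). CD1E had 51.1, 50.5 and 51.1 FPKM in treated Jurkat, against 281.5, 290.5 and 339.4 FPKM in untreated Jurkat. The treated CD1E values lay within 1 FPKM of each other, at 16.7% of the untreated mean (log2 change -2.55 ± 0.078, adjusted p = 2.86e-10). CD1A had 10.8, 11.4 and 12 FPKM in treated Jurkat, against 50.1, 52 and 61.4 FPKM in untreated Jurkat. This left CD1A at 20.9% of its untreated mean (log2 change -2.16 ± 0.083, adjusted p = 1.57e-09).

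CD1B had 9.28, 7.74 and 8.17 FPKM in treated Jurkat, against 28.7, 29.2 and 38 FPKM in untreated Jurkat. The treated mean of CD1B was 26.3% of the untreated mean, and the log2 change was -1.80 ± 0.14 (adjusted p = 4.16e-07). CD1D had 12.9, 11.9 and 12.1 FPKM in treated Jurkat, against 41.8, 39.5 and 46.5 FPKM in untreated Jurkat. CD1D was left at 28.9% of its untreated mean, and its 3 treated values, at 27.9% to 30.3% of that mean, overlapped those of CD1B, at 24.2% to 29% (log2 change -1.71 ± 0.093, adjusted p = 2.59e-08). The groups did not overlap for any of the 5, as for 27.4% of all genes tested in the lower direction. In untreated Jurkat, replicate 3 had the highest value of every CD1 gene. Without that library the log2 changes lay between -2.51 for CD1C and -1.65 for CD1D, and all 5 were still called.

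**Figure D1:**
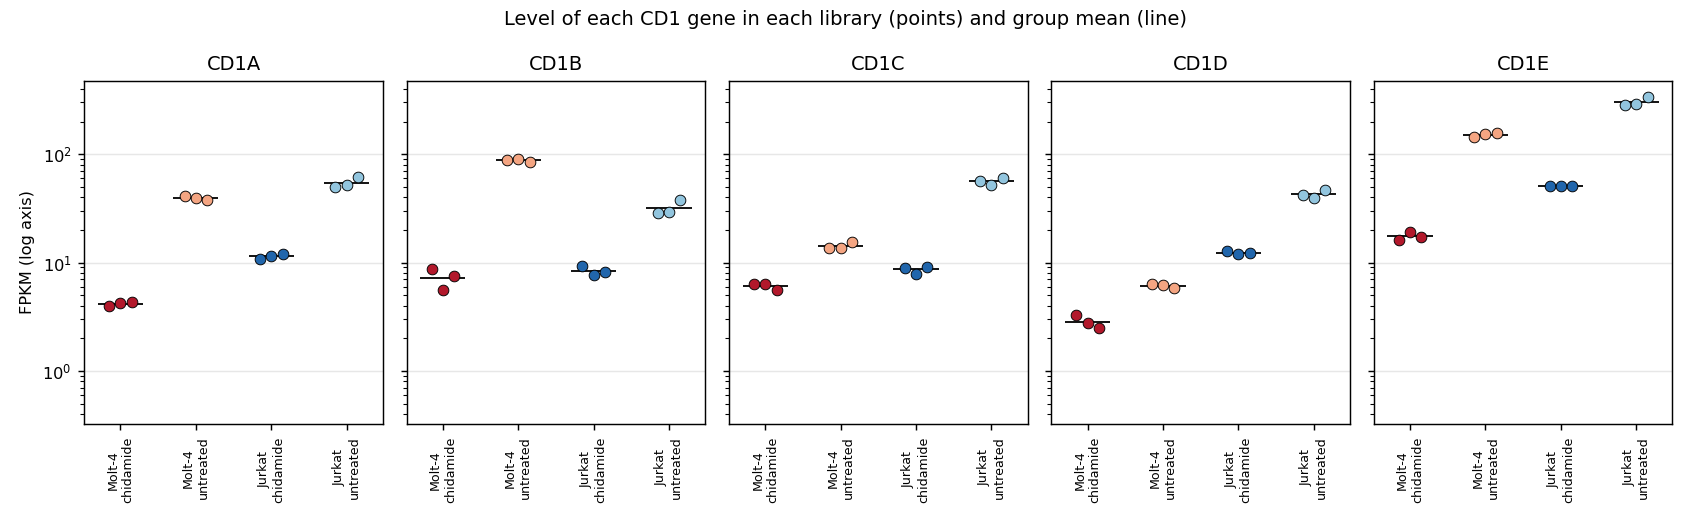
FPKM of each CD1 gene (log axis) in each of the 12 libraries (points, replicates 1 to 3 from left to right) with the group mean (line). In each panel the 3 treated libraries of a line lie below its 3 untreated libraries, and CD1E is the highest member in all 4 groups, with means of 17.4, 150.9, 50.9 and 304 FPKM from left to right.

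Set among all genes tested, the CD1 genes were near the lower end of the changes. In Molt-4, CD1B had the 4th lowest log2 change of 13840 genes, CD1E the 9th and CD1A the 10th, while CD1C had the 138th and CD1D the 270th. In Jurkat, the 5 genes held places between 22 for CD1C and 69 for CD1D. Genes with a change at least as low as that of CD1B in both lines numbered 3, as low as CD1E 5, as low as CD1A 7, as low as CD1C 13 and as low as CD1D 41. These places are on the log2(FPKM + 1) scale, on which a gene with few FPKM cannot show a large fall.

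**Figure D2:**
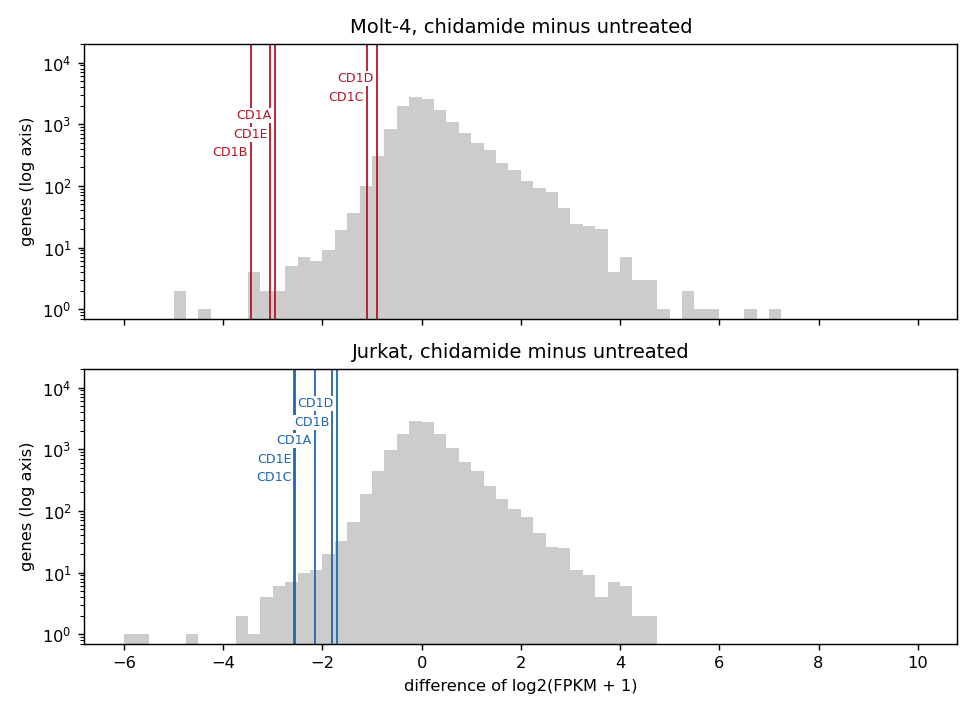
Number of genes (log axis) by the difference of log2(FPKM + 1) between chidamide and untreated, in bins of 0.25, in Molt-4 (top) and Jurkat (bottom). Vertical lines mark the 5 CD1 genes, which lie between -3.44 and -0.90 in Molt-4 and between -2.57 and -1.71 in Jurkat, left of the bulk of the 13840 genes.

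The size of the fall differed between the lines for every member, and not in 1 direction. CD1B, CD1A and CD1E fell further in Molt-4, and CD1C and CD1D fell further in Jurkat. The difference of the responses, Molt-4 minus Jurkat, was called for 5 of 5, against 31.9% of all genes tested, with 3 negative and 2 positive, against 12.1% and 19.8%. CD1B had the largest negative difference, -1.64 ± 0.19 (adjusted p = 5.45e-05), with 8.29% of the untreated mean left in Molt-4 and 26.3% in Jurkat. For CD1A the difference was -0.80 ± 0.12 (adjusted p = 0.000285), and for CD1E it was -0.50 ± 0.11 (adjusted p = 0.00469). CD1C had the largest positive difference, 1.46 ± 0.13 (adjusted p = 4.79e-06), with 42.7% left in Molt-4 and 15.4% in Jurkat. For CD1D the difference was 0.81 ± 0.13 (adjusted p = 0.000597), with 46.2% left in Molt-4 and 28.9% in Jurkat. The CD1D difference was called in 19 of 20 alternatives of the processing, and under quantile normalization its difference was 0.21 (adjusted p = 0.276, range over the alternatives 0.000544 to 0.276). All other differences kept their call and direction in the 20 alternatives.

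**Figure D3:**
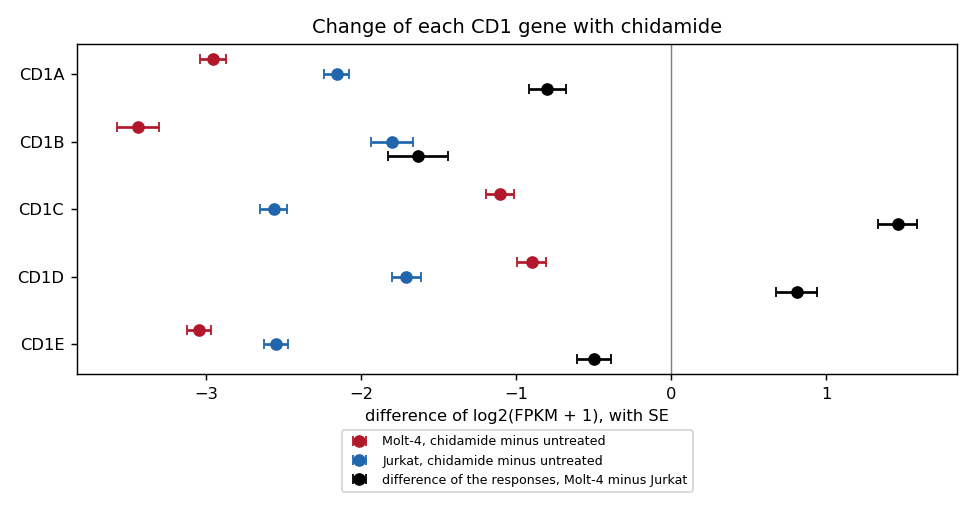
Difference of log2(FPKM + 1) with its SE for each CD1 gene: chidamide minus untreated in Molt-4 (red) and in Jurkat (blue), and the difference of both responses (black). All red and blue points are left of 0, and the black points are left of 0 for CD1A, CD1B and CD1E and right of it for CD1C and CD1D.

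Without chidamide the lines differed in which CD1 genes they held. In untreated Molt-4, CD1E was the highest at 150.9 ± 6.88 FPKM, followed by CD1B at 87.5 ± 3.15, CD1A at 39.3 ± 1.83, CD1C at 14.2 ± 1.14 and CD1D at 6.13 ± 0.252 FPKM (SD, n = 3), with no overlap between neighbours in this order. In untreated Jurkat, CD1E was again the highest at 304 ± 31.1 FPKM, followed by CD1C at 56.2 ± 4.57, CD1A at 54.5 ± 6.06, CD1D at 42.6 ± 3.56 and CD1B at 32 ± 5.24 FPKM. The values of CD1C and CD1A overlapped there, and the other neighbours did not. All 5 were called between the untreated lines, against 65.3% of all genes tested, 4 lower and 1 higher in Molt-4, against 37.5% and 27.9%. CD1B was higher in untreated Molt-4 than in untreated Jurkat (log2 difference 1.44 ± 0.14, adjusted p = 1.54e-06). The other members were lower in Molt-4, by a log2 difference of -2.61 ± 0.093 for CD1D (adjusted p = 1.59e-10), -1.91 ± 0.089 for CD1C (adjusted p = 1.96e-09), -1.0 ± 0.078 for CD1E (adjusted p = 2.53e-07) and -0.46 ± 0.083 for CD1A (adjusted p = 0.000379).

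With chidamide, 4 of the 5 were called lower in Molt-4 than in Jurkat, against 37.5% of all genes tested in that direction, 31.7% in the other and 69.2% in either. In treated Molt-4 the order was CD1E at 17.4 ± 1.63 FPKM, CD1B at 7.25 ± 1.53, CD1C at 6.08 ± 0.414, CD1A at 4.18 ± 0.192 and CD1D at 2.83 ± 0.408 FPKM (SD, n = 3), and only CD1B and CD1C overlapped among neighbours. In treated Jurkat the order was CD1E at 50.9 ± 0.367 FPKM, CD1D at 12.3 ± 0.526, CD1A at 11.4 ± 0.62, CD1C at 8.65 ± 0.662 and CD1B at 8.4 ± 0.795 FPKM, and CD1D overlapped CD1A and CD1C overlapped CD1B. CD1D differed the most between the treated lines (log2 difference -1.80 ± 0.093, adjusted p = 4.99e-09), followed by CD1E at -1.50 ± 0.078 (adjusted p = 5.52e-09) and CD1A at -1.26 ± 0.083 (adjusted p = 4.88e-08). CD1C differed by -0.45 ± 0.089 (adjusted p = 0.000726). CD1B was not called between the treated lines, with a log2 difference of -0.20 ± 0.14 and a 95% interval from -0.50 to 0.10 (adjusted p = 0.207, range over the alternatives 0.0534 to 0.728). Its value depended on treated Molt-4 replicates 1 and 2, at -0.32 without replicate 1 and -0.05 without replicate 2. It was -0.12 with median-of-ratios scaling and -0.34 with equal totals without 7SL RNA.

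FPKM is per length, so the 5 genes can be added and their shares compared. Their sum was 37.8 ± 0.741 FPKM in treated Molt-4, against 298 ± 4.38 FPKM in untreated Molt-4, and 91.6 ± 1.97 FPKM in treated Jurkat, against 489 ± 49.2 FPKM in untreated Jurkat (SD, n = 3). The sums did not overlap in either line. CD1E made up 46.1 ± 4.25% of the sum in treated Molt-4, against 50.6 ± 1.72% in untreated Molt-4, and 55.5 ± 0.81% in treated Jurkat, against 62.1 ± 0.717% in untreated Jurkat, with an overlap in Molt-4 and none in Jurkat. CD1B made up 19.2 ± 4.04% in treated Molt-4, against 29.4 ± 1.19% in untreated Molt-4. In Jurkat the share of CD1B was higher with treatment, 9.16 ± 0.718%, against 6.51 ± 0.395% untreated. CD1C went the other way in each line, at 16.1 ± 0.788% in treated Molt-4, against 4.77 ± 0.376% in untreated Molt-4, and 9.43 ± 0.533% in treated Jurkat, against 11.5 ± 0.713% in untreated Jurkat. The share of CD1D was higher with treatment in both lines, 7.5 ± 0.966% in treated Molt-4, against 2.06 ± 0.0987% in untreated Molt-4, and 13.4 ± 0.392% in treated Jurkat, against 8.72 ± 0.344% in untreated Jurkat. CD1A changed its share the least, 11.1 ± 0.671% in treated Molt-4, against 13.2 ± 0.77% in untreated Molt-4, and 12.4 ± 0.749% in treated Jurkat, against 11.1 ± 0.188% in untreated Jurkat. Over 20 comparisons of a share between groups, 18 showed no overlap, for which an exact two-sided permutation test gave p = 0.1, the smallest that 3 against 3 allows (adjusted p = 0.111 over the 20).

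**Figure D4:**
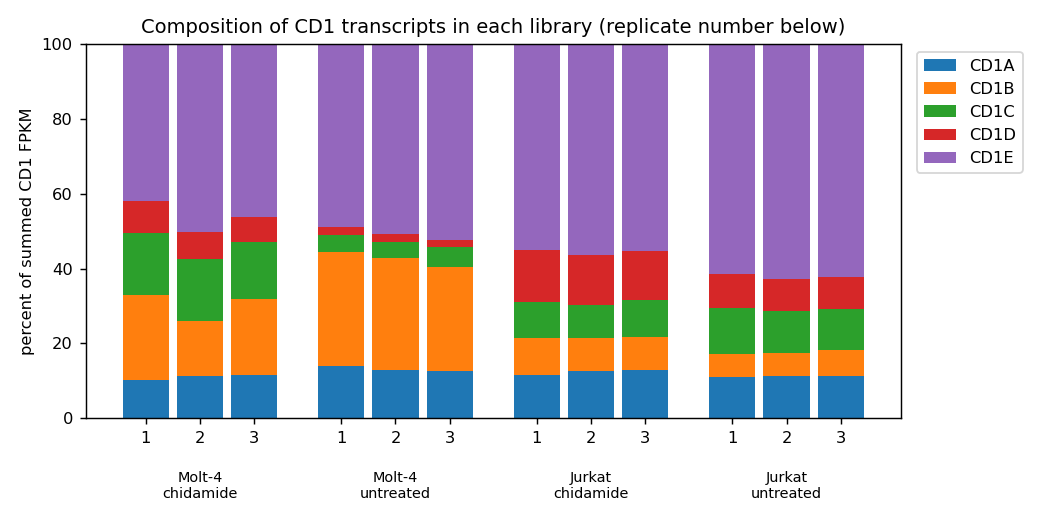
Share of each CD1 gene in the summed CD1 FPKM (percent) of each library, stacked to the whole, by group and replicate. CD1E is the largest block throughout, CD1B is larger in untreated Molt-4 (29.4% on average) than in the other groups, and CD1C is larger in treated Molt-4 (16.1%) than in untreated Molt-4 (4.77%).

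The members were also compared by their pattern over the 12 libraries, as the root mean square difference of their log2(FPKM + 1) values after each gene's own mean was subtracted, so that a smaller value is a closer pattern. CD1A and CD1E were each other's closest gene among the 13839 others, at 0.25. CD1C and CD1D were 0.61 apart, with 63 genes closer to CD1C and 73 closer to CD1D. CD1B and CD1D were the farthest apart, at 1.68. For CD1E the next were MZB1, an endoplasmic reticulum protein gene of B-lineage cells, at 0.25, LOC100507600 at 0.37 and ADAMTS17, a metalloprotease gene, at 0.39. For CD1A the same MZB1 and LOC100507600 followed at 0.26 and 0.25, then BAHCC1 at 0.33. MZB1 had a mean of 24.2 FPKM in treated Molt-4, against 159 FPKM in untreated Molt-4, and 45.1 FPKM in treated Jurkat, against 312 FPKM in untreated Jurkat. CD1B was closest to MAL, which encodes a raft-associated proteolipid of T cells, at 0.47, then SNHG25 at 0.61, TRAF3IP2 at 0.66 and the pre-T-cell receptor gene PTCRA at 0.68. CD1C was closest to LINC01225 at 0.20 and the galectin-9 gene LGALS9 at 0.24, followed by EIF4EBP3 at 0.35 and the phosphatase gene DUSP2 at 0.39. CD1D was closest to NUDT8 at 0.31 and DAAM2 at 0.32, followed by DUSP2 at 0.34 and TYSND1 at 0.36. The 12 libraries fall into 4 groups, so a close pattern mostly means similar group means.

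B2M, which encodes the light chain that CD1 and MHC class I heavy chains share, went the opposite way. It had 1972, 1954 and 1937 FPKM in treated Molt-4, against 910, 923 and 997 FPKM in untreated Molt-4 (log2 change 1.05 ± 0.044, adjusted p = 1.96e-09). In Jurkat it had 2304, 2333 and 2215 FPKM with treatment, against 1195, 1182 and 1158 FPKM without (log2 change 0.95 ± 0.044, adjusted p = 6.8e-09). Every treated library was above every untreated one in both lines. Among the 19 tested genes for assembly, chaperoning and trafficking, 6 were higher and 3 lower in Molt-4 and 7 higher and 5 lower in Jurkat. Of all genes tested, 35.4% were called higher and 24.6% lower in Molt-4, and 30.9% and 25.4% in Jurkat. Median log2 changes of that list were 0.12 in each line, against 0.08 and 0.04 over all genes. The adaptor subunit gene AP2A2 rose in both lines, to 29.8 ± 1.44 FPKM in treated Molt-4, against 17.5 ± 3.49 FPKM untreated, and to 71.4 ± 4.95 FPKM in treated Jurkat, against 34.9 ± 1.3 FPKM untreated (adjusted p = 9.9e-05 and 9.91e-06). The chaperone genes CALR and PDIA3 fell in Jurkat (log2 change -0.54 ± 0.096 and -0.34 ± 0.060, adjusted p = 0.00042 and 0.000421).

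Most called genes for loading CD1 with lipid were higher. Of 13 tested genes for lipid transfer, lysosomal lipid hydrolysis and lipid uptake, 8 were higher and 0 lower in Molt-4, and 6 were higher and 1 lower in Jurkat, with medians of 0.40 and 0.31 and a share of higher calls over all genes of 35.4% and 30.9%. PSAP, the precursor of the saposins that transfer lipids onto CD1 in lysosomes, rose to 730 ± 8.14 FPKM in treated Molt-4, against 299 ± 11.8 FPKM untreated (log2 change 1.29 ± 0.042, adjusted p = 2.9e-10). In Jurkat it rose to 836 ± 17.3 FPKM, against 356 ± 9.9 FPKM untreated (log2 change 1.23 ± 0.042, adjusted p = 5.79e-10). GM2A, the GM2 activator gene, fell in Jurkat (log2 change -0.74 ± 0.11, adjusted p = 0.000126) and rose in Molt-4 (0.37 ± 0.11, adjusted p = 0.0123). The acid ceramidase gene ASAH1 rose in Molt-4 to 75 ± 3.85 FPKM, against 29.9 ± 1.67 FPKM untreated (log2 change 1.30 ± 0.080, adjusted p = 5e-08). APOE, which carries lipids into cells for presentation, rose in Molt-4 to 108 ± 3.6 FPKM, against 32 ± 3.68 FPKM untreated (adjusted p = 4.91e-06). LIPA, the lysosomal acid lipase gene, rose in both lines (log2 change 0.55 ± 0.091 in Molt-4 and 0.51 ± 0.091 in Jurkat, adjusted p = 0.00023 and 0.00043). MTTP, whose product helps to lipidate CD1D in the endoplasmic reticulum, did not reach a mean of 1 FPKM in any group. Of 9 tested MHC class I-like genes other than CD1, 7 were higher and 0 lower in Molt-4, and 5 were higher and 2 lower in Jurkat. The stress ligand gene MICA had 8.41 ± 0.285 FPKM in treated Molt-4, against 2.95 ± 0.484 FPKM untreated, and rose in Jurkat to 14.4 ± 0.801 FPKM, against 4.72 ± 0.896 FPKM untreated (adjusted p = 1.1e-06 in Jurkat). PROCR, the endothelial protein C receptor gene, rose in Molt-4 to 22.3 ± 0.806 FPKM, against 1.67 ± 0.649 FPKM untreated (adjusted p = 3.75e-08). ULBP1 and RAET1E, both NKG2D ligand genes, fell in Jurkat (log2 change -0.93 ± 0.16 and -0.86 ± 0.12, adjusted p = 0.000336 and 5.44e-05).

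Genes that mark the same cortical stage as CD1 divided. Of 11 tested cortical thymocyte genes other than CD1, 6 were higher and 5 lower in Molt-4, and 4 were higher and 6 lower in Jurkat (1 higher and 7 lower under quantile normalization). Over all genes, 35.4% were called higher and 24.6% lower in Molt-4, and 30.9% higher and 25.4% lower in Jurkat. The list's medians were 0.66 in Molt-4 and -0.73 in Jurkat. Those that fell in both lines belong to antigen receptor rearrangement or the pre-T-cell receptor, with ARPP21, an RNA-binding protein gene, beside them. DNTT, the terminal transferase gene, had 1.8 ± 0.324 FPKM in treated Molt-4, against 75.4 ± 1.8 FPKM untreated, and 3.87 ± 0.74 FPKM in treated Jurkat, against 123 ± 39.1 FPKM untreated. The recombinase gene RAG1 had 1.91 ± 0.141 FPKM in treated Molt-4, against 89.3 ± 4.05 FPKM untreated (log2 change -4.96 ± 0.068, adjusted p = 3.69e-13), and fell by 2.73 ± 0.068 in Jurkat. RAG2 fell by 1.90 ± 0.12 in Molt-4 and by 0.82 ± 0.12 in Jurkat on the log2 scale (adjusted p = 5.82e-08 and 9.1e-05). PTCRA fell by 2.13 ± 0.14 in Molt-4 and by 2.69 ± 0.14 in Jurkat (adjusted p = 6.82e-08 and 1.32e-08), but passed the filter on low values only through the untreated libraries. CD38, an ectoenzyme of thymocytes, rose to 82.9 ± 3.36 FPKM in treated Molt-4, against 30.7 ± 5.9 FPKM untreated, and to 13.7 ± 2.29 FPKM in treated Jurkat, against 3.39 ± 2.83 FPKM untreated. CCR9, a thymus homing receptor gene, rose to 80.8 ± 1.95 FPKM in treated Molt-4, against 35 ± 0.705 FPKM untreated. CD4 rose in Molt-4 (log2 change 1.06 ± 0.13) and fell in Jurkat (log2 change -0.90 ± 0.13). CD8A was low, at 4.84 ± 0.236 FPKM in treated Molt-4, against 2 ± 0.147 FPKM untreated. CD8A was called higher in Jurkat as well (log2 change 0.54), but turned to -0.01 there under quantile normalization.

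**Figure D5:**
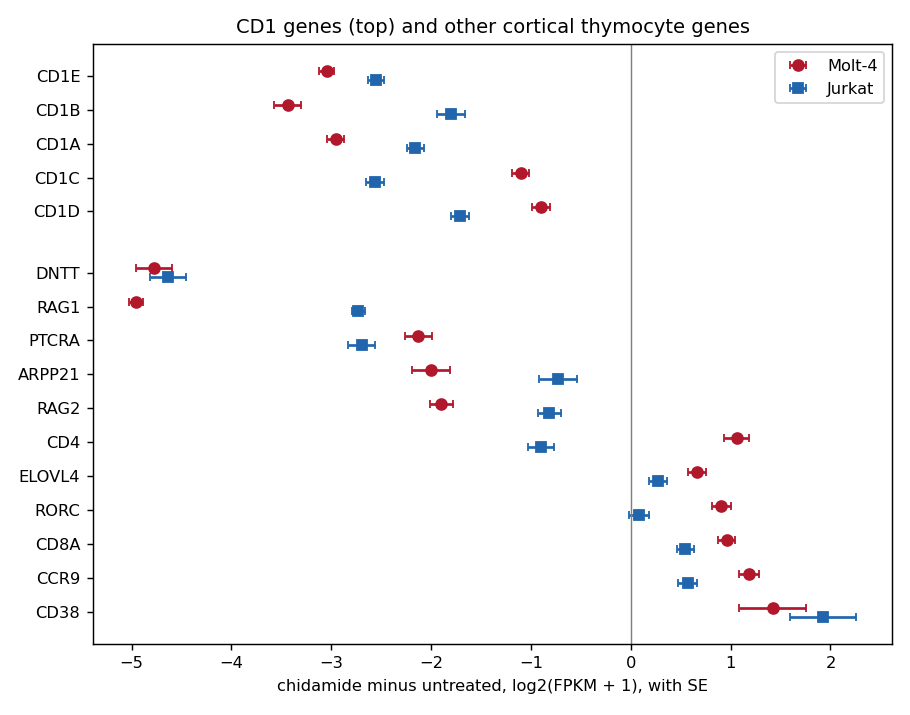
Difference of log2(FPKM + 1) between chidamide and untreated, with SE, for the 5 CD1 genes (top) and the 11 tested cortical thymocyte genes other than CD1 (bottom), in Molt-4 (circles) and Jurkat (squares). All CD1 points are left of 0, whereas DNTT, RAG1, PTCRA, ARPP21 and RAG2 lie left of 0 and CD38, CCR9, CD8A and ELOVL4 right of it in both lines. Under quantile normalization, CD8A in Jurkat is at -0.01, and CCR9 (0.05) and ELOVL4 (0.17) are not called there.

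Of the 10 T-cell markers, 4 were higher and 5 lower in Molt-4 and 2 higher and 7 lower in Jurkat, with medians of -0.03 and -0.78. Over all genes tested, 35.4% were called higher and 24.6% lower in Molt-4, and 30.9% higher and 25.4% lower in Jurkat, against which this count and those of the next 2 lists are to be read. CD7, an early T-lineage marker, rose in Molt-4 (log2 change 0.72 ± 0.086) and fell in Jurkat (-1.30 ± 0.086). The CD3 chain genes CD3D, CD3E and CD3G and the kinase genes LCK and ZAP70 fell in both lines. CD247, a further chain gene on this list, rose in Molt-4 (log2 change 0.29 ± 0.056, adjusted p = 0.000736). In Jurkat CD247 fell (log2 change -1.34 ± 0.056, adjusted p = 3.26e-09). CD3E changed by -0.56 ± 0.051 in Molt-4 and -1.10 ± 0.051 in Jurkat, and ZAP70 by -1.30 ± 0.062 in Molt-4 and -0.89 ± 0.062 in Jurkat (adjusted p = 1.57e-06, 6.9e-09, 5.69e-09 and 2.18e-07). The adaptor gene LAT and the adhesion receptor gene CD2 rose in both lines (1.17 ± 0.063 in Molt-4 and 0.84 ± 0.063 in Jurkat for LAT). Of 16 tested transcription factor genes of thymocyte development and CD1 regulation, 10 were higher and 5 lower in Molt-4 and 9 higher and 4 lower in Jurkat, with medians of 0.59 and 0.40. PPARG, called higher in Molt-4, passed the filter on low values only with the treated libraries. GATA3 rose to 169 ± 16.8 FPKM in treated Molt-4, against 23.6 ± 4.55 FPKM untreated, and to 148 ± 14.6 FPKM in treated Jurkat, against 33.5 ± 3.91 FPKM untreated. RUNX3 rose to 17.1 ± 0.81 FPKM in treated Molt-4, against 0.853 ± 0.261 FPKM untreated (log2 change 3.29 ± 0.11, adjusted p = 4.03e-10). LEF1 rose to 999 ± 7.74 FPKM in treated Jurkat, against 339 ± 57.1 FPKM untreated (adjusted p = 3.03e-08), and ETS1 to 473 ± 4.29 FPKM, against 176 ± 16.2 FPKM (adjusted p = 5.29e-09). The E-protein gene TCF3 fell by 0.36 ± 0.083 in Molt-4 and by 0.58 ± 0.083 in Jurkat (adjusted p = 0.00245 and 8.79e-05), and IKZF1, the Ikaros gene, fell by 0.36 ± 0.056 and by 0.44 ± 0.056 (adjusted p = 0.000162 and 3.14e-05). On the side of the cells that recognise CD1D, 7 of 8 tested genes of the invariant NKT-cell programme were higher and 1 lower in each line (6 and 0 in each under quantile normalization). Of those 8, ZBTB16, SLAMF1, IL2RB and TBX21 passed the filter on low values only with the treated libraries. For these, a rise in at least 1 line was largely fixed by the filter. IL2RB rose to 6.02 ± 0.59 FPKM in treated Molt-4, against 0.893 ± 0.185 FPKM untreated, and to 6.07 ± 0.272 FPKM in treated Jurkat, against 0.323 ± 0.15 FPKM untreated. SLAMF6, a receptor gene in NKT-cell selection, rose to 16.9 ± 0.771 FPKM in treated Molt-4, against 4.13 ± 0.485 FPKM untreated.

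In Molt-4, no tested marker of dendritic cells, B cells or monocytes was called lower with chidamide (BLK was under quantile normalization, at -0.33), whereas some dendritic and B-cell markers fell in Jurkat. The summed level of 14 dendritic and Langerhans cell markers was 40 to 43.8 FPKM in treated Molt-4, against 13.3 to 15.7 FPKM in untreated Molt-4, and 93.1 to 98.6 FPKM in treated Jurkat, against 69.3 to 80.3 FPKM in untreated Jurkat. Of 14 markers 6 were tested, and ITGAX and ZBTB46 were among them only through the treated libraries. LAMP3, BATF3, CD83 and IRF8 were the other 4, and all 4 rose in Molt-4 (log2 changes between 0.85 and 1.44). In Jurkat, CD83 rose by 2.03 ± 0.062, while IRF8 changed by -1.31 ± 0.19, LAMP3 by -0.76 ± 0.13 and BATF3 by -0.55 ± 0.15 (adjusted p = 2.86e-10, 0.000107, 0.000406 and 0.00918). CD207, CD209, CLEC9A, CLEC10A, CLEC4C and FCER1A were listed at 0 in every untreated library of both lines, and CLEC9A, CLEC10A and FCER1A in every treated Jurkat library. The maturation marker CD83 rose in Jurkat to 56 ± 1.61 FPKM, against 12.9 ± 0.481 FPKM untreated. The 7 B-cell markers summed to 19.5 to 24.1 FPKM in treated Molt-4, against 3.94 to 6.31 FPKM untreated, and to 16.9 to 20.1 FPKM in treated Jurkat, against 35.8 to 44.3 FPKM untreated. Among the tested B-cell markers, CD79B passed the filter only through the treated libraries, CD79A rose in Molt-4, CD79A and BLK fell in Jurkat, and MS4A1 was listed at 0 in all libraries of treated Molt-4, untreated Molt-4 and untreated Jurkat. CD79A was the main one, at 13.3 ± 1.31 FPKM in treated Molt-4, against 2.85 ± 0.406 FPKM untreated, and 11.6 ± 0.431 FPKM in treated Jurkat, against 27.4 ± 2.55 FPKM untreated. The 11 monocyte and macrophage markers summed to 116 to 120.3 FPKM in treated Molt-4, against 16.7 to 18 FPKM untreated, and to 6.59 to 11.1 FPKM in treated Jurkat, against 2.22 to 4.33 FPKM untreated. Of the 5 tested, LYZ, ITGAM and S100A9 passed the filter only through the treated libraries, so a rise in at least 1 line was largely fixed by the filter. The other 2, CD33 and CD68, rose in Molt-4 (log2 change 0.95 ± 0.15 and 2.11 ± 0.099, adjusted p = 0.000127 and 4.97e-09) and in Jurkat (0.79 ± 0.15 and 0.98 ± 0.099, adjusted p = 0.000566 and 4.59e-06), although CD33 was not called in Jurkat under quantile normalization (adjusted p = 0.224). LYZ, the lysozyme gene, rose in Molt-4 to 62.9 ± 0.906 FPKM, against 0.677 ± 0.251 FPKM untreated, while FCN1 was listed at 0 in every Molt-4 library. In Jurkat LYZ was not called, at 0.07 FPKM with treatment and 0.11 FPKM without (log2 change -0.05, adjusted p = 0.82). The part of these cell types in the CD1 values was not tested.

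The few tested genes beside the cluster did not all change in 1 direction. Of 24 protein-coding neighbours, 12 on either side, 23 had a row and 5 passed the filter on low values, the rest being mostly olfactory receptor and Fc receptor-like genes at or near 0. Among those 5, 2 were higher and 2 lower in Molt-4, and 2 were higher and 1 lower in Jurkat (2 and 3, and 2 and 2, under quantile normalization). The shares over all genes were 35.4% higher and 24.6% lower in Molt-4, and 30.9% higher and 25.4% lower in Jurkat. With 5 genes, these counts cannot be told apart from those shares. KIRREL, an adhesion molecule gene and the nearest one tested on the CD1D side, had 4.92 ± 0.533 FPKM in treated Molt-4, against 5.22 ± 0.0929 FPKM untreated (adjusted p = 0.426), and was called lower in Molt-4 under quantile normalization (log2 change -0.53). KIRREL fell in Jurkat to 17.4 ± 0.211 FPKM, against 29.1 ± 1.21 FPKM untreated (log2 change -0.71 ± 0.077, adjusted p = 8.64e-06). OR10R2, an olfactory receptor gene on the CD1E side, fell in Molt-4 to 0.0767 ± 0.0751 FPKM, against 1.41 ± 0.741 FPKM untreated, and was tested only because of its untreated libraries. ETV3 and ARHGEF11, farther out on the CD1D side, rose in both lines (log2 changes between 0.72 and 1.15). In RefSeq (GRCh38.p14) the span of CD1B overlaps that of CD1C, in GENCODE 29 it does not, and the sources used here do not say whether counting used the strand, so reads in an overlap could not be assigned with certainty. The CD1 genes are also related in sequence, and how shared reads were counted is not given in the sources used here.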

How the data were processed

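RNA of 12 libraries in 4 groups of 3 was analysed from FPKM values per gene symbol, made by the authors before deposit and deposited with 2 decimals. The authors used STAR, HTSeq, DESeq2 and the build hg19, per the submitters' processing notes, and how FPKM was obtained is not given in the sources used here. Groups were read from the sample titles, and every column of values was used. Genes at FPKM 1 or more in 3 or more libraries were kept, and log2(FPKM + 1) values were fitted with limma 3.58.1 in R 4.3.3 (1 mean per group, 8 residual degrees of freedom, empirical Bayes with a trend). P-values are two-sided and adjusted by the Benjamini-Hochberg method over 13840 genes in each of 5 comparisons. The fit was tested on simulated data. The members, the 11 lists and the naming rule were chosen with earlier results of these data known. Of 155 list genes 150 had a row, 1 of them under an older symbol, and the others were not analysed here. From each list, up to 3 called rises and 3 called falls per line could be named (where the higher group averaged 1 FPKM or more), or the 2 highest genes where none was called. B2M, the 4 genes closest in pattern to each member and 12 neighbours on each side were added. ARPP21, RAG2, MTTP, CD3D, LCK, the markers listed at 0 and further genes that a count needed are outside that rule and were chosen after their values were seen, and some list genes that the rule names are not reported here. Promoter sequences are from RefSeq (GRCh38.p14), and 250 bases before each start were searched.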

Additional observations from a re-analysis of the deposited data

Results flagged for a closer look

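The chidamide response of every CD1 gene differed between the lines by the test of the difference itself in limma. That test called 31.9% of all genes tested, 12.1% negative and 19.8% positive. Molt-4 minus Jurkat, the difference was -0.80 for CD1A (adjusted p = 0.000285), -1.64 for CD1B (adjusted p = 5.45e-05) and -0.50 for CD1E (adjusted p = 0.00469), where the fall was larger in Molt-4. It was 1.46 for CD1C (adjusted p = 4.79e-06) and 0.81 for CD1D (adjusted p = 0.000597), where the fall was larger in Jurkat. Each gene was lower in 3 of 3 treated libraries than in every untreated library of the same line, in both lines. Of all genes tested, 28.3% in Molt-4 and 27.4% in Jurkat were lower without overlap in this way. The untreated levels of CD1C and CD1D were lower in Molt-4, at 14.2 and 6.13 FPKM, than in Jurkat, at 56.2 and 42.6 FPKM. With a pseudocount of 0.1 the differences of CD1C and CD1D were 1.47 and 0.68. Under quantile normalization the CD1D difference was 0.21 (adjusted p = 0.276) and was no longer called, while that of CD1C was 1.21.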

How the results depend on the processing

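Alternatives changed the pseudocount (0.1), the filter (none, or FPKM 5 or more), the scaling (median of ratios, quantiles, or equal totals after removal of 7SL RNA) and the fit (compared groups alone, robust variances, the replicate block, or each of the 12 libraries left out). Of 520 log2 changes of CD1 genes over the 5 comparisons and these alternatives, 519 kept their direction and their side of the threshold. The other is the difference of the CD1D responses under quantile normalization, 0.21 (adjusted p = 0.276). The cause was not tested. Quantile normalization shifted the median log2 change of all genes in Molt-4 by -0.17, to -0.10. In the difference of the responses, 54.1% of all calls were negative under quantile normalization and 48.8% with totals made equal, against 37.8% as deposited. With median-of-ratios scaling, 47.4% of all calls between the treated lines and 48.3% between the untreated lines were lower in Molt-4, against 54.2% and 57.4% as deposited. The numbers of called CD1 genes with each library left out were 5 for both treatment comparisons, 5 for their difference, 4 between treated lines and 5 between untreated lines. Samples with the same replicate number did not deviate together, with correlations between -0.0858 and 0.0408 over the 4 pairs of groups, and not every sample correlated best with its own number. With the replicate block the numbers of called CD1 genes were the same, 5, 5, 5, 4 and 5. Over all genes the block gave 3473 lower and 4207 higher in Jurkat, against 3509 and 4277 without it. FPKM without counts leaves the depth unknown, and 3 libraries a group limit the precision.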
